A study of Mus musculus with 6 samples.

Results

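The BCL2 family decides whether a lymphocyte lives or dies at the outer membrane of its mitochondria. Survival members such as BCL2, BCL-XL, BCL-W and MCL1 hold the pore-forming effectors BAX and BAK in check, and the BH3-only proteins BIM, BID, BIK and BMF bind the survival members or the effectors and so release pore formation, cytochrome c and the caspases. In natural killer (NK) cells interleukin-15 (IL-15) is known to keep MCL1 and BCL2 high and BIM low, and BCL2 was among the first targets described for microRNA-15a and microRNA-16-1, in human leukaemia cells. The genes described here are 10 members of the family (Bcl2, Bcl2l1, Bcl2l2, Mcl1, Bax, Bak1, Bcl2l11, Bid, Bik and Bmf), taken as every probe set whose gene symbol in the platform annotation is one of them. For 9 of the 10 genes 1 probe set was found, which makes 9 of 35556 probe sets in the table and 9 of 19938 genes with a symbol. Bax, a pore-forming effector, had no probe set listed under its symbol and was not analysed here, so that the effectors are represented by Bak1 alone.

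Expression was measured on 6 Affymetrix arrays of NK cells sorted from the spleens of C57Bl/6 mice aged 8 to 12 weeks. All cells were sorted as YFP+, CD27+, NK1.1+ and CD3-, so that both groups carried the YFP reporter and both came from the CD27+, less mature part of the NK pool. One group, with 3 arrays, had the genotype 15a/16-1FKO and is referred to as the knockout. The other, also with 3 arrays, was labelled Ctrl and is referred to as the control. The sources used here do not say what drives the deletion or how many mice gave each RNA. The submitters describe the 3 arrays as technical replicates, although sex-linked transcripts differed between arrays of the same genotype, as described below. Every p-value and interval below measures only the spread between these arrays.

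The knockout removes a microRNA pair that acts through a shared seed, the bases 2 to 8 that pair with target transcripts. The mature sequences are shown because they define which transcripts the pair can reach and which other microRNAs carry the same seed. They are RefSeq sequences on GRCm38.p6, written 5′ to 3′ with the seed in capitals.
miR-15a-5p, from the deleted locus (chr14:61632075-61632096, minus strand): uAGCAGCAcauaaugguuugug
miR-16-5p, from the deleted locus (chr14:61631936-61631957, minus strand): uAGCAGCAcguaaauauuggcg
miR-15b-5p, from the related cluster (chr3:69009775-69009796, plus strand): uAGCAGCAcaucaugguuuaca
miR-195a-5p (chr11:70235062-70235082, plus strand): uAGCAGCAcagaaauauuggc
miR-497a-5p (chr11:70234730-70234751, plus strand): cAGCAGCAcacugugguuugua
The deleted pair has the same base at 16 of 22 positions, and the first 9 bases are identical. Mature miR-16-5p is also made from Mir16-2 on chromosome 3, which the knockout leaves in place by its label. Of 1679 mature names in the table, 10 carry this seed.

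At the deleted locus Mir15a differed between genotypes. Its probe set read 7.14, 6.02 and 6.69 on the log2 scale in control arrays and 4.37, 3.53 and 3.43 in knockout arrays. It fell by 2.84 (SE 0.31, limma adjusted p = 0.0296), without overlap between genotypes. The background level used here is 4.13, under which 95% of 1027 olfactory receptor genes lay, a choice made with these data in view. Knockout replicates 2 and 3 and the knockout mean of 3.77 lay under it, so the fall is measured only down to near background. The partner Mir16-1 lay under that level in all 6 arrays, with means of 3.39 ± 0.33 in the control and 2.76 ± 0.21 in the knockout (SD, n = 3 arrays each). Its log2 difference was -0.63 (SE 0.19, limma unadjusted p = 0.00922, adjusted p = 0.999), without overlap between genotypes. Of the other precursors with this seed, Mir15b, Mir16-2, Mir195a and Mir497 were examined and did not pass the threshold, and the rest were not analysed here. The log2 differences were -0.29 for Mir15b (SE 0.22), -0.11 for Mir16-2 (SE 0.15), -0.20 for Mir195a (SE 0.18) and -0.40 for Mir497 (SE 0.20), and Mir15b and Mir16-2 had mean levels under the background, at 3.16 and 3.38. Across 19938 genes, 4 passed an adjusted p of 0.05, or 0.0201%. They were Gfra2, Mtmr9 and Rcbtb2, which rose, and Mir15a, which fell. The Mir15a call ended with the covariate for sex-linked transcripts (limma adjusted p = 0.0545), when every probe set of the table was tested (adjusted p = 0.594), and without knockout replicate 2 or 3 or control replicate 1 or 3 (adjusted p between 0.150 and 0.184).

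The arrays of a genotype did not carry the same RNA. Xist, which is transcribed from the inactive X chromosome of female cells, read 9.65, 3.89 and 8.86 in control replicates 1, 2 and 3, and 7.56, 8.58 and 8.84 in the knockout. The Y-linked Eif2s3y read 2.33, 7.95 and 6.29 in the control and 7.88, 6.60 and 6.18 in the knockout. Control replicate 1 was thus high for Xist and low for Eif2s3y, control replicate 2 the reverse, and the other 4 arrays were high for both. The 14 measured NK markers all lay above the background level of 4.13. Below that level lay 6 of 9 B cell, 6 of 10 T cell, 7 of 10 myeloid, 2 of 8 neutrophil and 4 of 7 erythroid and platelet markers. Among the T cell markers above it were the CD3 chains Cd3d, Cd3e and Cd3g, with means over the 6 arrays of 7.33, 6.34 and 6.84. Median log2 differences of these marker lists were 0.02 for NK, 0.00 for B cells, 0.04 for T cells, -0.03 for myeloid cells, 0.01 for neutrophils and -0.07 for red cells and platelets, and none of their members passed the threshold. Single markers, named after their values were seen, differed more than these medians. The T cell gene Cd28 differed by 0.43 (SE 0.14, limma unadjusted p = 0.0117, adjusted p = 0.999) and the platelet gene Gp5, under the background, by -0.36 (SE 0.13, unadjusted p = 0.0228), both without overlap. With overlap, the neutrophil genes S100a8 and Cxcr2 differed by 0.77 (SE 0.32, limma unadjusted p = 0.0407) and -0.55 (SE 0.28, unadjusted p = 0.0858), Cxcr2 under the background. The part of these markers in the results below was not tested. The array means of the neutrophil list ranged from 4.46 to 5.14 in the knockout and from 4.59 to 4.82 in the control. In such bulk samples fewer cells of a type and less RNA per cell cannot be told apart.

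None of the 9 measured BCL2 family genes passed the threshold, where 0.0201% of all genes did. Their adjusted p-values were all 0.999 by limma, and 0 of 9 had an unadjusted p under 0.05, against 3.47% of all genes. The arrays of the genotypes overlapped for each of the 9, whereas 8.33% of all genes showed no overlap. Differences were positive for 5 and negative for 4, with a median of 0.01 (all genes: -0.01), and they ran from -0.13 for Bcl2l2 to 0.38 for Bik. All 9 means lay above the olfactory receptor level. Because probes differ in how strongly they bind, levels are compared here only within a gene and not between genes.

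**Figure D1:**
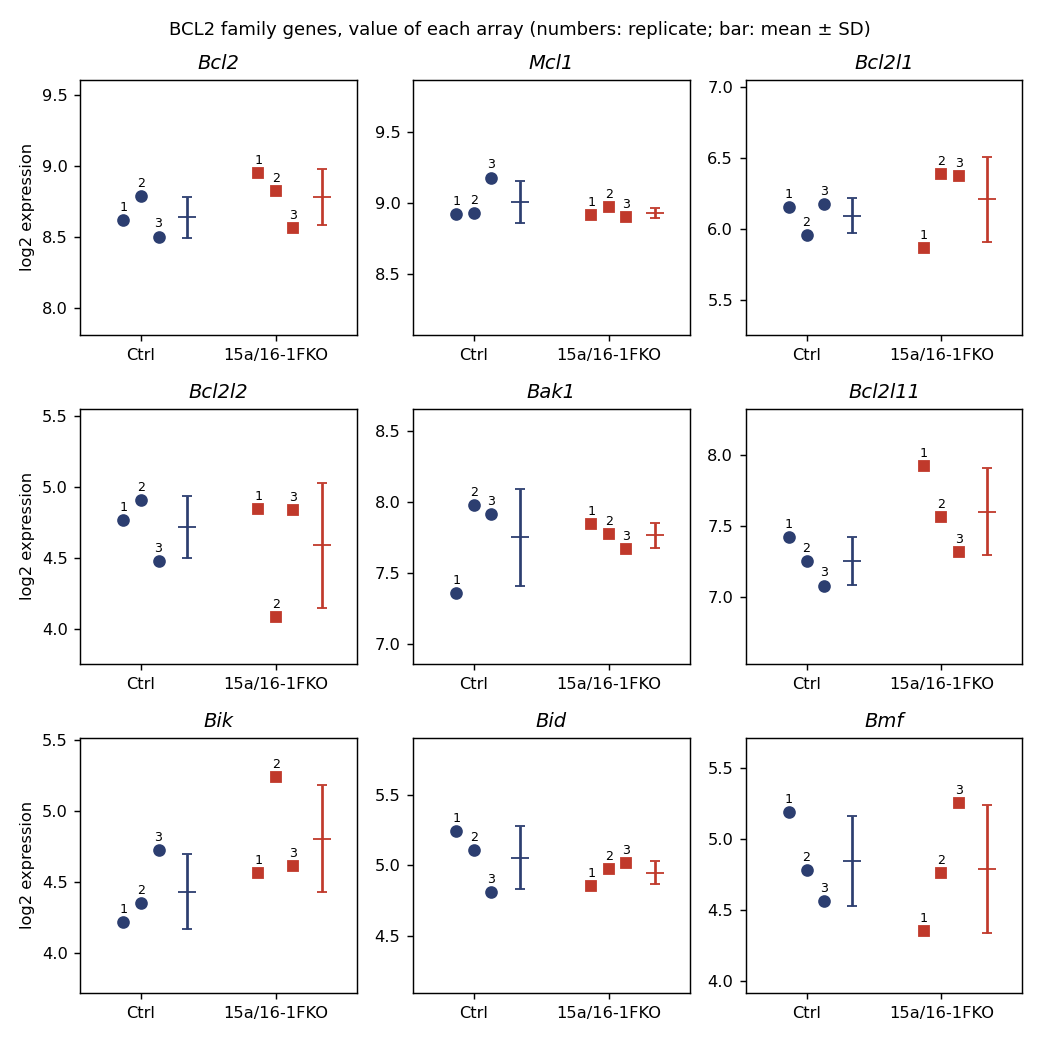
Log2 expression of 9 BCL2 family genes on each of 6 arrays, with control arrays as blue circles and knockout arrays as red squares, replicate numbers beside the points and the mean ± SD of 3 arrays at the right of each group. Every panel spans the same height of log2 units, and in every panel the genotypes overlap.

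Among the survival genes, Bcl2 and Mcl1 had the narrowest limits. Bcl2, the founding survival member and the textbook target of this microRNA pair, read 8.62, 8.79 and 8.50 in control arrays and 8.95, 8.82 and 8.56 in knockout arrays. Knockout replicates 1 and 2 exceeded every control array, but replicate 3 lay inside the control range. The means were 8.64 ± 0.14 and 8.78 ± 0.20 (SD, n = 3 arrays each), a log2 difference of 0.14 (SE 0.15, limma unadjusted p = 0.384). The 95% interval ran from -0.21 to 0.49, that is from 0.867-fold to 1.40-fold, so that a doubling of the Bcl2 transcript signal lay outside it. The arrays measured transcripts only, so this interval sets no limit on BCL2 protein. Leaving out 1 array at a time moved the difference between 0.06 and 0.25.

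Mcl1, the survival member on which NK cells depend most and a short-lived protein that IL-15 maintains, read 8.92, 8.93 and 9.18 in the control and 8.92, 8.97 and 8.91 in the knockout. The knockout arrays lay close together at the low end of the control range, and knockout replicates 1 and 3 were just under the lowest control array. The log2 difference was -0.08 (SE 0.14, 95% interval -0.39 to 0.23, or 0.764-fold to 1.17-fold), the narrowest interval of the 9 genes. It was 0.01 without control replicate 3, the brightest array. The spread of Mcl1 within genotypes was low, at a pooled SD of 0.11, where the median gene had 0.20.

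Bcl2l1, which encodes BCL-XL and its short death-promoting splice form, read 6.16, 5.96 and 6.17 in the control and 5.86, 6.39 and 6.37 in the knockout. Both the lowest and the highest value were knockout arrays. The log2 difference was 0.11 (SE 0.17, 95% interval -0.28 to 0.50), and it became 0.29 without knockout replicate 1, the lowest array, and 0.023 without knockout replicate 2. The single probe set does not separate the splice forms in the values used here.

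Bcl2l2, which encodes the survival protein BCL-W, read 4.77, 4.91 and 4.48 in the control and 4.85, 4.08 and 4.84 in the knockout. Knockout replicate 2 was the lowest of all arrays, at a value under the olfactory receptor level, and the others lay inside the control range. The log2 difference was -0.13 (SE 0.22, 95% interval -0.62 to 0.37), and without knockout replicate 2 it was 0.13, the opposite direction. Bcl2l2 is the only member on chromosome 14, which carries the deleted locus. It is the 110th of the measured genes from Mir15a in gene order, at a distance of 6.75 Mb. The 3 called genes that rose lie on the same chromosome.

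Bak1, the effector that MCL1 and BCL-XL restrain, read 7.36, 7.98 and 7.92 in the control and 7.85, 7.78 and 7.67 in the knockout. The knockout arrays lay inside the control range, whose width came from control replicate 1. The means were 7.75 ± 0.34 and 7.76 ± 0.09 (SD, n = 3 arrays each), a log2 difference of 0.01 (SE 0.18, 95% interval -0.39 to 0.42). Its sign was not fixed, since the difference was -0.18 without control replicate 1 and 0.13 without control replicate 2. Those are the arrays that differed most in Xist and Eif2s3y. With a covariate for sex-linked transcripts the difference was 0.02. The covariate had nearly the same mean in both genotypes and could hardly move a difference. The part of these transcripts in the result was thus not tested.

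The BH3-only genes held the largest positive differences of the 9, in Bik and Bcl2l11. Bcl2l11 encodes BIM, the main killer of lymphocytes deprived of cytokine. It read 7.43, 7.26 and 7.08 in control arrays and 7.93, 7.57 and 7.32 in knockout arrays. Knockout replicates 1 and 2 exceeded every control array, and replicate 3 lay below control replicate 1. The means were 7.26 ± 0.17 and 7.61 ± 0.31 (SD, n = 3 arrays each), a log2 difference of 0.35 (SE 0.18, limma unadjusted p = 0.0835, adjusted p = 0.999). The 95% interval of -0.06 to 0.76 corresponds to 0.962-fold to 1.69-fold. Leaving out knockout replicate 1 lowered the difference to 0.19, and leaving out knockout replicate 3 raised it to 0.49. In absolute size the difference of 0.35 exceeded that of 94.0% of all genes, although the test did not separate it from 0.

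Bik, a BH3-only protein of the endoplasmic reticulum described in human cells, read 4.22, 4.35 and 4.73 in the control and 4.56, 5.24 and 4.61 in the knockout. Knockout replicate 2 was the brightest of all arrays, while the other knockout arrays lay inside the control range. The log2 difference was 0.38 (SE 0.21, 95% interval -0.10 to 0.85, limma unadjusted p = 0.109, adjusted p = 0.999). Without knockout replicate 2 it was 0.16. These values lie near the background.

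Bid, which caspase 8 and granzyme B cleave into its active form, read 5.24, 5.11 and 4.81 in the control and 4.86, 4.97 and 5.02 in the knockout. The knockout arrays lay inside the control range. The log2 difference was -0.10 (SE 0.15, 95% interval -0.45 to 0.24), and it ranged from -0.23 without control replicate 3 to -0.011 without control replicate 1. Gzmb, which encodes granzyme B, had a log2 difference of -0.50 (SE 0.17, limma adjusted p = 0.999) and did not overlap between genotypes. Gzmb lies on the chromosome of the deleted locus as well, and the part of this position in its difference was not tested.

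Bmf, which is held at the cytoskeleton by a dynein light chain and released when cells detach or are starved of cytokine, read 5.19, 4.78 and 4.56 in the control and 4.35, 4.76 and 5.25 in the knockout. Its arrays were spread more widely within genotypes than those of 92.6% of all genes, with SDs of 0.32 and 0.45. The log2 difference was -0.06 (SE 0.24, 95% interval -0.60 to 0.48). It turned positive without knockout replicate 1 (0.16) and without control replicate 1 (0.12). For a gene this variable the 3 arrays a genotype leave a wide range of changes undetectable.

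**Figure D2:**
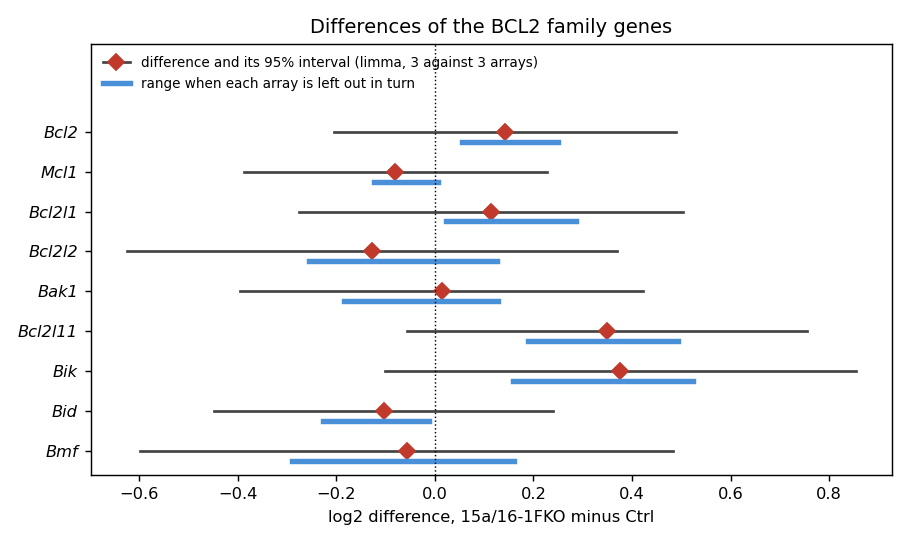
Log2 difference, knockout minus control, of the 9 BCL2 family genes (red diamonds) with the 95% interval of the limma fit (grey lines, 3 against 3 arrays) and the range over the 6 fits that each leave out 1 array (blue bars). Every interval crosses 0, from the narrowest (Mcl1, -0.39 to 0.23) to the widest (Bmf, -0.60 to 0.48), and the blue bars of Bcl2l2, Mcl1, Bak1 and Bmf cross 0 as well.

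Against the whole array the members held differences both below and above the median gene. The median absolute log2 difference of all genes was 0.11, and 5 of the 9 members lay at or above it. The share of positive differences was 47.9% over all genes and 5 of 9 among the members. The spread within genotypes ran from a pooled SD of 0.11 for Mcl1 to 0.39 for Bmf, around the 0.20 of the median gene.

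**Figure D3:**
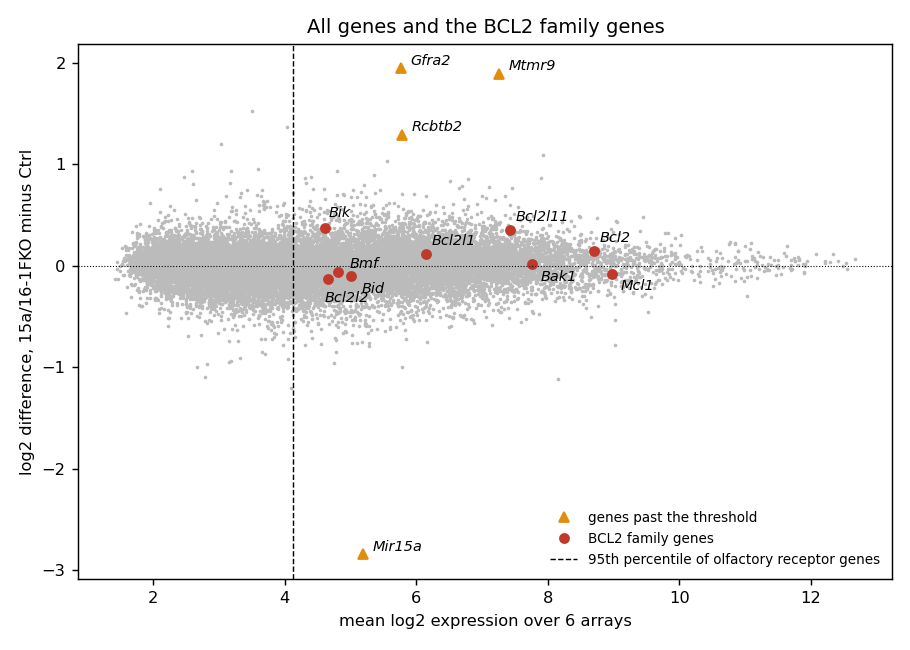
Log2 difference, knockout minus control, against the mean log2 expression over 6 arrays for 19938 genes (grey), the 9 BCL2 family genes (red circles) and the 4 genes past the threshold (orange triangles). The dashed line marks 4.13, the level under which 95% of olfactory receptor genes lay; the 9 genes lie to its right and between -0.13 and 0.38.

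Further BCL2 relatives were read from a list of 16 genes, 13 of them measured. None passed the threshold, 9 differences were positive and 4 negative, and the median log2 difference was 0.05. Bnip3, a mitochondrial BH3-like protein induced by hypoxia and used in mitophagy, read 4.85, 4.76 and 5.72 in the control and 4.62, 4.64 and 4.26 in the knockout, with a difference of -0.60 (SE 0.25, limma unadjusted p = 0.0360). The genotypes did not overlap, but control replicate 3 stood above the others, and without it the difference was -0.30. A second Bnip3 probe set differed by -0.43 (SE 0.27) with overlap. Bcl2a1c, of the A1 group, differed by 0.54 (SE 0.19, limma unadjusted p = 0.0180), with overlap between genotypes and both means below the olfactory receptor level. The A1 genes are near-identical copies whose probes can cross-react, and the other 3 listed copies were not analysed here. Among the remaining BH3-only genes, which were chosen for mention after their values were seen, Bbc3 (PUMA) differed by 0.05 (SE 0.13), Pmaip1 (NOXA) by 0.17 (SE 0.17) and Bad by -0.18 (SE 0.19).

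The steps after the mitochondrion showed no called gene. Of 15 measured genes of mitochondrial apoptosis, which hold cytochrome c, the apoptosome and the caspases, 7 had positive and 8 negative differences (median -0.01). The smallest p-values in that list were those of Aifm1, a mitochondrial flavoprotein that can move to the nucleus, at -0.23 (SE 0.13), and the channel gene Vdac1 at 0.29 (SE 0.19). The 7 inhibitors of apoptosis had 1 positive and 6 negative differences, all between -0.13 and 0.11, with a median of -0.05. Their leading genes were the NAIP family genes Naip2 at -0.13 (SE 0.22) and Naip5 at 0.11 (SE 0.22), both of which changed sign in at least 1 fit that left out an array. In the death receptor pathway, which reaches the BCL2 family through caspase 8 and BID, 5 of 11 genes had positive and 6 negative differences (median 0.00). The receptor gene Tnfrsf1a differed by -0.23 (SE 0.15) and its adaptor Tradd by -0.22 (SE 0.16).

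Genes that set the level or activity of BCL2 family proteins were looked at next, since a transcript array does not see protein turnover. Of 11 measured partners and turnover genes, 9 had positive and 2 negative differences (median 0.12 on the log2 scale) and none past the threshold. Usp9x, the deubiquitinase that stabilises MCL1, read 7.02, 7.09 and 6.93 in the control and 7.36, 7.57 and 7.20 in the knockout. The genotypes did not overlap, as in 8.33% of all genes, and the difference was 0.37 (SE 0.15, limma unadjusted p = 0.0319, adjusted p = 0.999). Usp9x lies on the X chromosome, and with the covariate for sex-linked transcripts its difference was again 0.37. That covariate had nearly the same mean in both genotypes, so it could hardly move a difference. The part of sex in the Usp9x difference was not tested. Usp13, another deubiquitinase reported to act on MCL1 in human cells, differed by 0.25 (SE 0.16) below the olfactory receptor level.

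Transcription factors that control members of the family were likewise without a call. Of 14 measured, 9 had positive and 5 negative differences (median 0.01). Myb is named in the title of the study as a target of the microRNA pair and is known to activate Bcl2. Its log2 difference was 0.22 (SE 0.13, 95% interval -0.07 to 0.51, limma unadjusted p = 0.124, adjusted p = 0.999). The genotypes did not overlap for Myb, as in 8.33% of all genes. Beside Myb, Bcl2 differed by 0.14 with overlap. Rela, the NF-kappaB subunit, differed by 0.27 (SE 0.19). Foxo3, which activates Bcl2l11 when cytokine signals are low, differed by 0.04 (SE 0.16), and Foxo1 by 0.25 (SE 0.19), these 2 being named as known regulators of Bcl2l11 after their values were seen.

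IL-15 receptor signalling, the main survival input of NK cells, had 8 of 12 genes measured, 5 with positive and 3 with negative differences (median 0.05) and none past the threshold. Of the 8, 2 did not overlap between genotypes, where 8.33% of all genes showed no overlap. They were the feedback suppressors Socs3 and Cish, which STAT5 and other STAT proteins induce. Cish read 4.74, 5.01 and 4.71 in the control and 4.60, 4.43 and 4.39 in the knockout, with a difference of -0.34 (SE 0.15, limma unadjusted p = 0.0417). These Cish values lie near the background of 4.13. Socs3 differed by -0.52 (SE 0.18, limma unadjusted p = 0.0184), but its second probe set differed by 0.34 (SE 0.20), the opposite direction, with overlap. All of these had a limma adjusted p of 0.999.

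**Figure D4:**
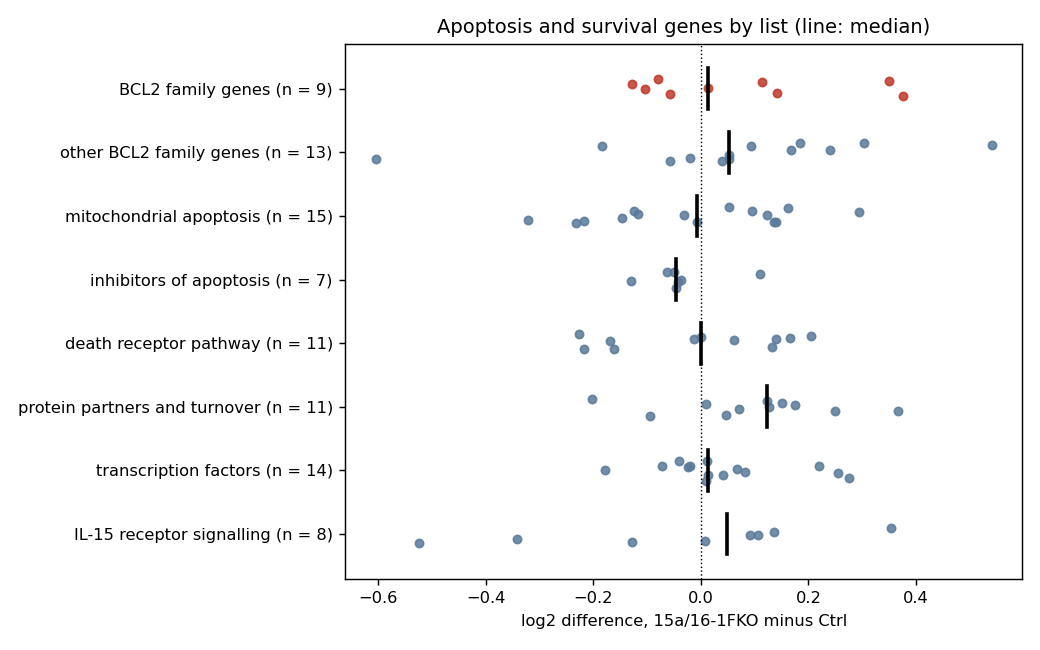
Log2 difference, knockout minus control, of each measured gene in 8 lists, with the 9 BCL2 family genes in red at the top, genes of related lists in blue and the median of each list as a black line. All points lie between -0.60 and 0.54, and the list medians lie between -0.05 and 0.12.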

How the data were processed

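RNA of 6 NK cell samples was hybridised to Affymetrix arrays, 1 array a sample. The authors deposited log2 expression values for 35556 probe sets, between 0.74 and 13.6. RMA and Partek 6.6 appear, with no role given, in the submitters' processing notes. RMA as usually run subtracts background, quantile-normalizes and summarises probes. The sources used here do not give the genome build behind the values. Arrays have no read depth, and their number limits the precision.

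In GEO's platform annotation 21789 probe sets had 1 symbol, 1621 had several and 12146 were not listed. Each gene was represented by its brightest probe set (19938 genes, 999 with several). Genotypes were compared by lmFit and eBayes of limma 3.58.1, run in R 4.3.3 (two-sided, no covariate), as knockout minus control, with Benjamini-Hochberg adjustment over all genes and a threshold of 0.05. An exact permutation test of 3 against 3 arrays cannot go below p = 0.1 and was not used. The fit was tested on simulated data with known changes in 200 genes a simulation. It called 3.19% of simulated log2 changes of 0.5, 56.4% of changes of 1 and 94.6% of changes of 2. False calls averaged 6 a simulation. These rates apply to that number of changed genes and can be lower where fewer genes change. Each member difference was smaller than 0.5 in size, so a missing call does not show that a member was unchanged.

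The text names all members, the 2 genes with the smallest p of the other apoptosis and survival lists, and the few stated exceptions. The members and the lists were chosen with earlier results of these data known. Of the sequences shown, each was matched by name in RefSeq. Alternatives were other scalings, filters, priors, probe sets, a block, a sex-linked covariate (the level of Xist less the average of the Y-linked Eif2s3y, Kdm5d and Uty) and each array left out in turn.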

Additional observations from a re-analysis of the deposited data

How the results depend on the processing

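Under each of 16 alternatives 0 of the 9 BCL2 family genes passed the threshold. Of 144 member values under these alternatives, 136 kept their direction. Part of these could not change it. The filter on dim genes, the block, the prior and the choices of probe set leave each member difference as it was. Bak1 changed sign after a second quantile normalization (-0.011) and with array weights (-0.0084). Leaving out each array in turn gave ranges that crossed 0 for Bak1 (-0.18 to 0.13), Bcl2l2 (-0.26 to 0.13), Mcl1 (-0.12 to 0.0053) and Bmf (-0.29 to 0.16), and for the other genes Naip2 (-0.31 to 0.14), Naip5 (-0.055 to 0.29), Xist (-0.93 to 1.95), Eif2s3y (-0.23 to 2.57), Uty (-0.18 to 1.28) and Kdm5d (-0.43 to 1.12). The same fits moved Vdac1 (0.11 to 0.42), Rela (0.13 to 0.44), Tnfrsf1a (-0.31 to -0.12), Tradd (-0.33 to -0.13) and Usp13 (0.14 to 0.36) without a change of sign. The dimmer probe set of Socs3 gave 0.34 in place of -0.52. The count of all genes past the threshold, 4, became 2 with the sex-linked covariate, 0 when every probe set of the table was tested, and 2 to 3 when 1 array was left out. The cause was not tested. With the replicate number as a block 3 genes passed and no member did. Bcl2l11 kept its difference of 0.35 with a smaller SE of 0.14 (limma unadjusted p = 0.0404, adjusted p = 0.999). Of the 16 alternatives, a limma unadjusted p under 0.05 was reached in 2 by Bcl2l11 (lowest 0.0257) and in 1 by Bik (0.0459). Both genes had adjusted p-values of at least 0.991 throughout. Deviations of same-numbered arrays from their genotype means correlated with r of 0.05, 0.15 and 0.14 across genes. All 6 arrays correlated best with their own number, but only narrowly for replicate 1 (0.048 against 0.045 and 0.042). The deviations within a genotype sum to 0, so these are not 6 separate agreements. They are a hint from the data that the labels do not state, and the numbers were not taken as pairs. Genes below the median level gave no value under the filter on dim genes. The 3 arrays a genotype limit what could be detected.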
